A study of Rattus norvegicus with 10 samples.

Results

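Liver RNA collected 24 h after a burn injury was compared with liver RNA collected 8 h after it, in rats. The comparison was chosen by sample title: the 2 arrays titled 24 h were set against the 2 arrays titled 8 h, which makes 4 of the 10 arrays in the series. The other 6 arrays came from sham livers (0 h) and from livers taken 1 h and 4 h after the burn, 2 arrays each, and entered neither side of the contrast. Both groups compared had been burned. The labels give neither the strain, sex and age of the rats nor the size of the burn, and nothing in them states that the paired arrays of each time are different rats, so p-values measure only the spread between these arrays. Each array measured liver RNA with 8799 probe sets, and the values are intensities as deposited.

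A burn sets off the hepatic acute phase response. Cytokines such as interleukin-6, together with glucocorticoids, switch the hepatocyte towards secreting plasma proteins that bind, inhibit or transport, while many genes of metabolism and detoxification are turned down. Acute phase proteins differ in their timing: in the rat, alpha-2-macroglobulin is a late and strongly induced member, whereas lipocalin 2 and orosomucoid respond early to interleukin-1 type signals. Stress hormones also act on gluconeogenesis, and feeding, fasting and time of day move liver transcripts with or without injury.

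Log2 intensity correlated at 0.9548 between the 24 h arrays and at 0.9504 between the 8 h arrays. Between a 24 h and an 8 h array the correlation was 0.8993 to 0.915 (descriptive, over the 5254 probe sets tested). Median intensity was 115 and 124 on the 24 h arrays, against 100.1 and 121 on the 8 h arrays. The ratio of 3' to 5' probe sets for GAPDH, a sign of RNA quality, was 1.39 and 1.43 at 24 h, against 1.45 and 1.36 at 8 h, and that for beta-actin was 0.94 and 1.16 at 24 h, against 1.25 and 1.46 at 8 h. The hepatocyte marker list, which holds Alb, Ttr, Apoa1 and 10 others that were tested, summed to 383472 and 406895 at 24 h, against 435047 and 445094 at 8 h, so the tissue label holds in both groups. One marker list of another tissue stood apart. Genes of exocrine pancreas summed to 3100 and 3887 at 24 h, against 15659 and 15747 at 8 h, and are described below.

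Of 5254 probe sets tested, 624 (11.9%) were called at 24 h against 8 h with limma at an adjusted p under 0.05, 309 (5.88%) higher and 315 (6.0%) lower. The median log2 change over all probe sets tested was 0.07. The 2 arrays of one group lay apart from the 2 of the other for 2924 probe sets (55.7%), 1621 of them (30.9%) higher and 1303 (24.8%) lower at 24 h, and 1450 (27.6%) had an unadjusted p under 0.05. The probe sets called with a single symbol stood for 441 genes, 204 higher and 237 lower, and no gene was called in both directions. Changes over 4-fold were seen for 94 of the called probe sets, 38 higher and 56 lower, and 420 of them exceeded 2-fold. With 24 h array 1, 24 h array 2, 8 h array 1 or 8 h array 2 left out, 253, 265, 353 and 300 probe sets were called. In all, 185 of the 624 kept the call with each of the 10 arrays left out in turn. For a gene that did not, the text gives the highest adjusted p of those 10 fits and the array whose omission gave it. At the edge of the threshold, a probe set with no gene name, M17419_at, was called with an adjusted p of 0.0499, and Dkc1 (rc_AA892562_at), at 1.41 on the log2 scale, was not called with 0.0501.

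**Figure D1:**
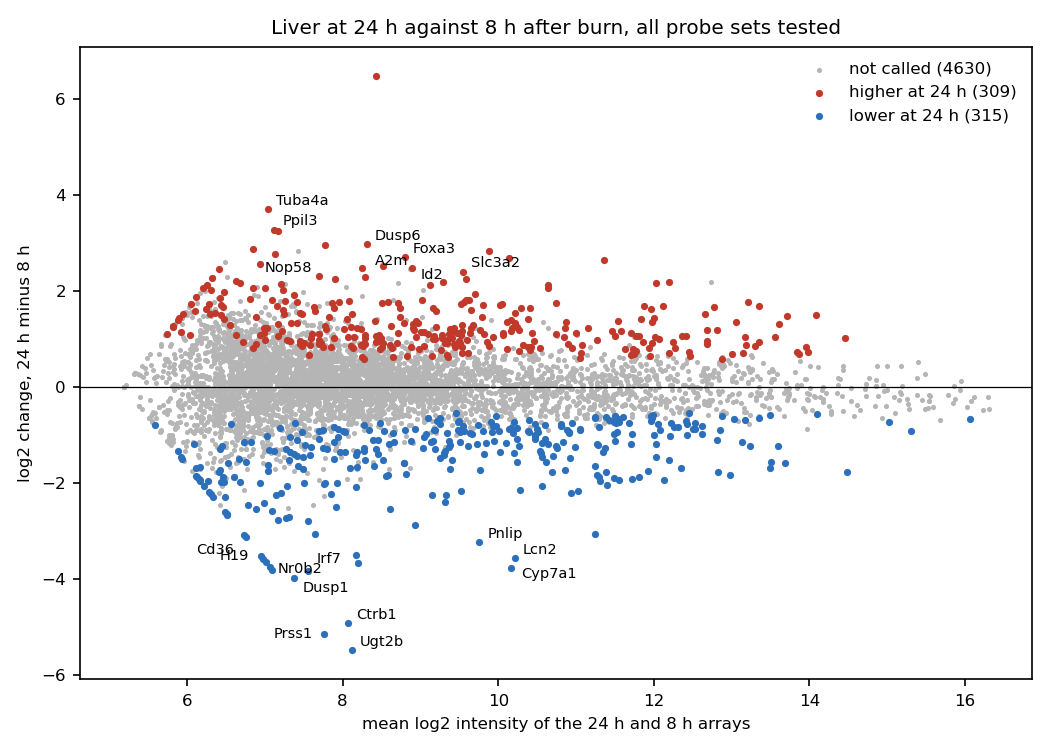
Each point is 1 of the 5254 probe sets tested, placed by its mean log2 intensity over the 24 h and 8 h arrays (x axis) and its log2 change, 24 h minus 8 h (y axis). Red points were called higher (309) and blue points lower (315). Named points are the genes with the largest changes, and the topmost point is a probe set with no gene name.

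The probe set with the largest change had no gene name in the tables used here. M23995_g_at, singled out after its values were seen, had intensities of 3117 and 3397 on the 24 h arrays, against 8.1 and 8.8 on the 8 h arrays. The 8 h values lay below the floor of 36.4 applied before the log2 step, so the change is a bound, at least 89.4-fold higher at 24 h (adjusted p = 3.59e-06). Its level was 1093 and 1030.3 on the sham arrays, and the 8 h arrays alone were near zero.

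Among named genes, Tuba4a (rc_AA800948_at), an alpha-tubulin, had 441 and 506 on the 24 h arrays, against 35 and 29.3 on the 8 h arrays, at least 13-fold higher (adjusted p = 0.00072). Ppil3, a peptidyl-prolyl isomerase, had 507 and 369 on the 24 h arrays, against 36.9 and 54.1 on the 8 h arrays (log2 change 3.28 ± 0.32, adjusted p = 0.00138). Tnfrsf21, a death receptor of the TNF receptor family, had 823 and 938 on the 24 h arrays, against 115 and 202 on the 8 h arrays (log2 change 2.53 ± 0.31, adjusted p = 0.0035). For each of these genes both 24 h arrays lay well above both 8 h arrays. Fam111a had 395 and 339.6 at 24 h, against 80.2 and 7.4 at 8 h (adjusted p = 0.0053; adjusted p = 0.0402 without 24 h array 1). Mgat2, an N-glycan branching enzyme of the Golgi, had 341 and 262 at 24 h, against 22.9 and 69.9 at 8 h (adjusted p = 0.00642; adjusted p = 0.0476 without 24 h array 1). In both genes 1 of the 8 h arrays was below the floor. The histone chaperone gene Nap1l1 rose by 2.87 ± 0.47 on the log2 scale (adjusted p = 0.0643 without 24 h array 2), with its other probe set, at 0.77, not called. An uncharacterised locus, LOC102547700, rose by 2.96 ± 0.42, and its other probe set, at 2.14, was not called. The translation factor subunit Eif2b3 had 303 and 130.1 at 24 h, against 18.5 and 33.1 at 8 h, at least 5.46-fold higher (adjusted p = 0.0718 without 8 h array 2), while its other 2 probe sets were not called. Cox7a2l, a respiratory supercomplex factor, had 764 and 626 at 24 h, against 164 and 123 at 8 h (log2 change 2.29 ± 0.36; adjusted p = 0.0595 without 24 h array 1), and its other probe set, at 0.25, was not called.

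The largest decreases included pancreatic enzymes, Ugt2b, Dusp1, Irf7, Cyp7a1, Nr0b2 and Lcn2, which are described with their groups. Cd36, a fatty acid uptake receptor, had 35.3 and 34 on the 24 h arrays, against 335 and 307 on the 8 h arrays, at least 8.8-fold lower (adjusted p = 0.00177); its second probe set, at -1.20, was not called. H19, an imprinted non-coding RNA of fetal liver, had 31.6 and 27.7 on the 24 h arrays, against 362 and 487 on the 8 h arrays, at least 11.5-fold lower (adjusted p = 0.00071). For both genes the sham arrays lay below the 8 h arrays, at 62.9 and 132 for Cd36 and 54.7 and 90.9 for H19.

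The 8 h and 24 h livers often lay on opposite sides of the sham livers. For 292 of the 624 called probe sets (46.8%), both sham arrays fell between the 24 h and the 8 h arrays, against 460 of all 5254 tested (8.8%) and 15.7% of the 2924 whose groups did not overlap. The 24 h arrays alone stood apart from sham, with 8 h overlapping it, for 153 called probe sets, and the 8 h arrays alone for 58. Both lay on the same side of sham for the other 121. By mean log2 intensity, sham was nearer to 24 h than to 8 h for 32.4% of called probe sets, against 44.8% of all tested; for those called lower the share was 25.7%, and for those called higher 39.2%. The 4 h mean was nearer to 24 h for 58.0% of called probe sets, against 53.0% of all tested, and the 1 h mean for 33.5%, against 45.8%. These shares use the 24 h and 8 h values that made the calls and are a description with no test.

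**Figure D2:**
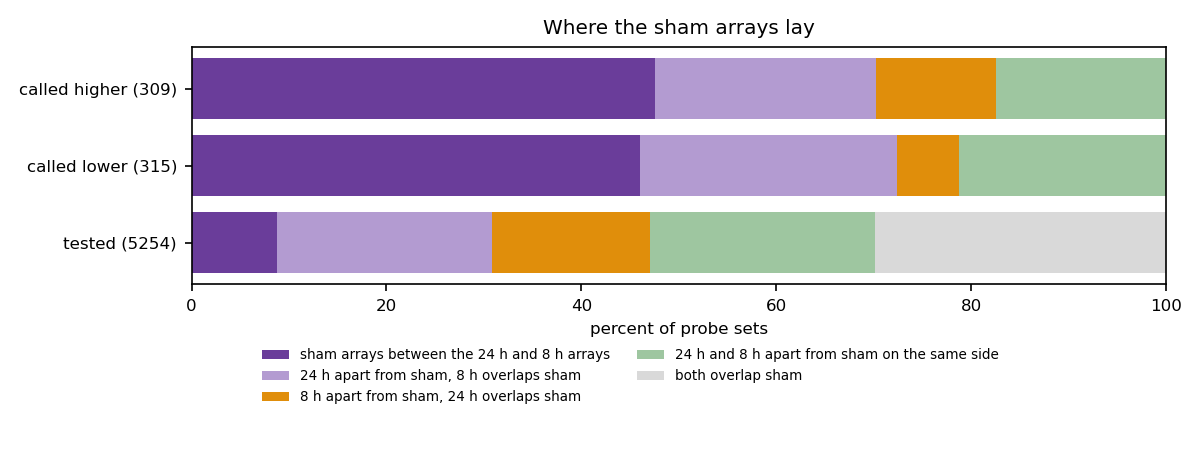
Each bar divides a class of probe sets by where the 2 sham arrays lay relative to the 24 h and 8 h arrays, as a percent of the class (x axis). The dark purple section, sham between 24 h and 8 h, covers 47.6% of probe sets called higher, 46.0% of those called lower and 8.8% of all tested.

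The acute phase proteins did not move together between 8 h and 24 h. Alpha-2-macroglobulin and the serpin Serpina3n were higher at 24 h, while lipocalin 2, orosomucoid 1 and ceruloplasmin were lower. In the list of positive acute phase proteins 21 members were tested, of which 1 was called higher, 6 were called lower and 14 were not called, with a median log2 change of -0.16. Over all 3142 genes tested, 5.32% were called higher and 6.27% lower, with a median of 0.07. These shares belong beside the counts of every list below. That includes the short counts for coagulation, IGF and insulin signalling, apolipoproteins, growth, and cytokine and STAT3 genes.

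A2m, the broad-range protease inhibitor alpha-2-macroglobulin, had intensities of 724 and 718 on the 24 h arrays, against 131 and 127 on the 8 h arrays on probe set M22670cds_at. It rose 5.6-fold (log2 change 2.48 ± 0.13, adjusted p = 0.00014) and was still below the floor on both sham arrays, at 10.1 and 19.3. In all, 4 of its 5 probe sets were called higher, by 1.17 to 2.48 on the log2 scale. The fifth and brightest, M23566exon_s_at, which stands for A2m in the list count, had 14747 and 14465 on the 24 h arrays, against 3089 and 3299.7 on the 8 h arrays and a log2 change of 2.19 ± 0.58, and it was not called (adjusted p = 0.053). Serpina3n, a serine protease inhibitor, had 31974 and 32059 on the 24 h arrays, against 16598 and 14902 on the 8 h arrays. It rose 2.04-fold (adjusted p = 0.00767), and its sham arrays were lower than both groups, at 7423 and 7623.

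Lcn2, lipocalin 2, which binds bacterial siderophores, had 329 and 362 on the 24 h arrays, against 4129.7 and 4017 on the 8 h arrays. It was 11.8-fold lower at 24 h (adjusted p = 0.00605) and was 104 and 25.5 on the sham arrays, below both burn groups. Orm1, orosomucoid 1, a drug-binding plasma glycoprotein, had 11753 and 13124 on the 24 h arrays, against 40689 and 44442 on the 8 h arrays. Orm1 fell 3.42-fold (adjusted p = 0.00126). Cp, the ferroxidase ceruloplasmin, had 6064 and 6532 on the 24 h arrays, against 15082 and 14387 on the 8 h arrays, a 2.34-fold decrease (adjusted p = 0.00432), and its 24 h arrays lay below the sham arrays at 7058 and 7052. T-kininogen (Kng2), lipopolysaccharide-binding protein (Lbp) and haptoglobin (Hp) had log2 changes of -0.92, -0.71 and -0.68 and were called lower, but not with every array left out (adjusted p = 0.0797 without 24 h array 1 for Kng2, adjusted p = 0.11 without 24 h array 2 for Lbp and adjusted p = 0.152 without 24 h array 1 for Hp). All 3 remained above sham at 24 h. Fibrinogen did not pass the test: Fgb had 28924 and 30804 at 24 h, against 31218 and 27840 at 8 h. Without 24 h array 1, 24 h array 2, 8 h array 1 and 8 h array 2, the list held 3, 3, 4 and 3 members called lower and 1, 1, 1 and 1 called higher.

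**Figure D3:**
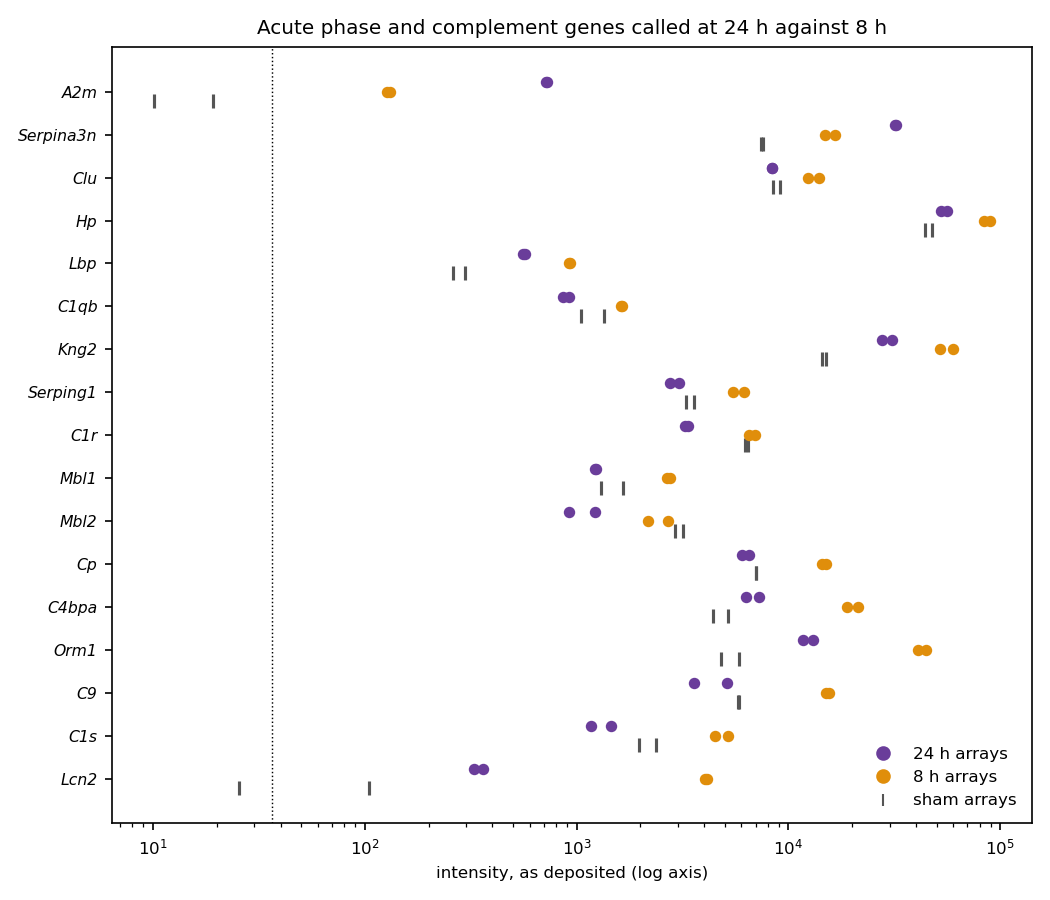
Each row is a gene of the acute phase or complement lists called at 24 h against 8 h, with the intensity of each 24 h array (purple), 8 h array (orange) and sham array (grey ticks) on a log axis; the dotted line is the floor of 36.4. A2m is shown by probe set M22670cds_at. A2m and Serpina3n have the 24 h arrays on the right of the 8 h arrays, and in the other 15 rows the 24 h arrays lie on the left.

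The start-proximal sequences of 3 members of this group are shown, from the RefSeq promoter table on build GRCr8. Each is the 200 bases before the transcription start, read on the gene's strand, with a motif match in capitals. The capitals mark the STAT motif TTCNNNGAA in Serpina3n (chr6:129088192-129088391, plus strand), 123 to 115 bases before the start, and the C/EBP motif TTNNGCAA, on either strand, in Orm1 (chr5:81788309-81788508, plus strand), 123 to 116 bases before the start, and in Lcn2 (chr3:36081781-36081980, minus strand), 191 to 184 bases before the start.
Serpina3n: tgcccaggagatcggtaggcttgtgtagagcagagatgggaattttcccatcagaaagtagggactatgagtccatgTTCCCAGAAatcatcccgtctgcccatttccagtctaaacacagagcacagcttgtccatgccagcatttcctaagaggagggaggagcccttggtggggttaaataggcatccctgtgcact
Orm1: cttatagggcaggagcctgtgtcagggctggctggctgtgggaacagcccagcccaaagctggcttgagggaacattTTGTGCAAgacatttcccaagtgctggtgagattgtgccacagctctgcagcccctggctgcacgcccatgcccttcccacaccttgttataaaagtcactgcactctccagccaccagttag
Lcn2: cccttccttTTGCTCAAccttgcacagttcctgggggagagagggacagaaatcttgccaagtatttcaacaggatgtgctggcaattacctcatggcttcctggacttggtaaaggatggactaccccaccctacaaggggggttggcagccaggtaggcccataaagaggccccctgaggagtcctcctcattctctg
Of the 7 called members of the acute phase list, 5 had a promoter in the table. The C/EBP motif was in 4 of these 5 and the STAT motif in 1. Over all 27457 promoters of the table, 7.1% held the C/EBP motif and 6.0% the STAT motif in the same window, searched on both strands. The C/EBP motif was in 6.8% of genes called higher and 8.6% of those called lower, and the STAT motif in 3.4% and 5.6%. Among promoters of all genes tested, the shares were 6.7% for the C/EBP motif and 4.6% for the STAT motif. A match is a match of letters and does not show binding.

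A number of complement genes fell. The complement cascade is a set of plasma proteases and binding proteins, made largely by hepatocytes, that tags and lyses microbes. Of the list, 18 members were tested, of which 0 were called higher, 9 were called lower and 9 were not called, with a median log2 change of -0.58. C1s, the protease of the first component, had 1174 and 1456 on the 24 h arrays, against 5193 and 4506 on the 8 h arrays. C1s fell 3.7-fold (adjusted p = 0.00423). C9, which forms the lytic pore, had 3564 and 5106 on the 24 h arrays, against 15602 and 15003 on the 8 h arrays. C9 fell 3.59-fold (adjusted p = 0.00241). C4bpa, the inhibitor C4b-binding protein, had 6315 and 7279 on the 24 h arrays, against 18854 and 21379 on the 8 h arrays. C4bpa fell 2.96-fold (adjusted p = 0.00241). In each of the 3 the 24 h and 8 h arrays were clearly apart; C1s and C9 were below the sham arrays at 24 h and above them at 8 h, and C4bpa was above sham in both groups.

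The mannose-binding lectins that start the lectin pathway were lower too. Mbl1 had 1229 and 1215 at 24 h, against 2684 and 2746 at 8 h (log2 change -1.15 ± 0.19; adjusted p = 0.0642 without 24 h array 2), and Mbl2 fell by 1.18 ± 0.23 on the log2 scale (adjusted p = 0.0991 without 24 h array 2). C1r, Serping1, C1qb and Clu were called lower at log2 changes of -1.02 to -0.65, and each lost the call in at least 1 of the 10 fits (adjusted p = 0.0562 without 24 h array 2 for C1r, adjusted p = 0.0572 without 24 h array 2 for Serping1, adjusted p = 0.127 without 24 h array 2 for C1qb and adjusted p = 0.181 without 8 h array 1 for Clu). C3, the central component, was not called: its brighter probe set, M29866_s_at, had 32093 and 34312 at 24 h, against 38968 and 40901 at 8 h (log2 change -0.27 ± 0.17, adjusted p = 0.383), and X52477_at was at -0.65 (adjusted p = 0.0503). Members called lower without 24 h array 1, 24 h array 2, 8 h array 1 and 8 h array 2 numbered 5, 3, 6 and 6, and in none of these fits was a member called higher. In the coagulation list 0 of 17 members were called higher and 2 lower (median log2 change -0.31): factor X (F10) fell by 0.83 and plasminogen (Plg) by 0.77, and neither was called with every array left out (adjusted p = 0.12 without 24 h array 1 for F10 and adjusted p = 0.0831 without 24 h array 2 for Plg). Among plasma carrier proteins, the corticosteroid-binding globulin Serpina6 fell by 1.01 (adjusted p = 0.0705 without 24 h array 1) and the vitamin E binding afamin (Afm) rose by 0.68 (adjusted p = 0.173 without 24 h array 1), and 15 of 17 were not called, albumin (Alb) among them.

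Irf7 and 5 other listed genes of interferon signalling and antigen presentation fell on the probe sets counted, and most of the list was not called. Interferon induces the transcription factor IRF7, antiviral effectors and the machinery that cuts and loads peptides onto class I molecules. Of this list, 27 members were tested, of which 0 were called higher, 6 were called lower and 21 were not called. The median log2 change was -0.44. On probe sets that this count does not use, Tap1, Psmb9, Psme1 and RT1-CE12 were called lower and Cd86 higher. Irf7 had 44.5 and 55.2 on the 24 h arrays, against 715 and 707 on the 8 h arrays, a 14.3-fold decrease (adjusted p = 9.50e-05), and both of its probe sets were called lower. Its sham arrays, at 342 and 353, lay between the groups, and its 4 h arrays, at 58.9 and 53.6, were as low as the 24 h arrays. Ifitm3, an interferon-induced membrane protein that blocks virus entry, had 1349.6 and 1232 on the 24 h arrays, against 5475 and 4603 on the 8 h arrays. Ifitm3 fell 3.89-fold (adjusted p = 0.00099). RT1-S3, a class I gene of the rat major histocompatibility complex with close paralogs that may share its probes, had 509 and 445 on the 24 h arrays, against 1569 and 1614 on the 8 h arrays. RT1-S3 fell 3.34-fold (adjusted p = 0.00126).

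Psmb8, a catalytic subunit of the immunoproteasome, had 794 and 1049.9 at 24 h, against 2328 and 3099.6 at 8 h, a 2.94-fold decrease (adjusted p = 0.00733; adjusted p = 0.0501 without 24 h array 1). Oas1a, an oligoadenylate synthetase, fell by 0.94 ± 0.17 (adjusted p = 0.0881 without 24 h array 1), and Mx1, an antiviral GTPase below the floor on both 24 h arrays, was at least 4.58-fold lower (adjusted p = 0.158 without 8 h array 2). Members called lower without 24 h array 1, 24 h array 2, 8 h array 1 and 8 h array 2 numbered 3, 5, 4 and 4, and on plain probe set designs alone 1 was called. The probe sets of Irf7, Ifitm3, RT1-S3 and Psmb8 counted here are not of plain design and were not tested in that fit. The standard proteasome went the other way from Psmb8. In the proteasome and ubiquitin list 3 of 27 members were called higher and 0 lower (median log2 change 0.34). Psma5, Psmb4, Psmc2 and Psmd1 were called higher on probe sets that this count does not use. The 3 counted were Psmc4 at 0.83, Psmb5 at 0.63 and Psma6 at 0.61. None of these 3 was called with 1 of the 4 arrays left out, with adjusted p = 0.0807 without 24 h array 2 for Psmc4, adjusted p = 0.136 without 8 h array 2 for Psmb5 and adjusted p = 0.168 without 24 h array 1 for Psma6.

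The promoters of Irf7 and Ifitm3 are shown because both hold the interferon response motif GAAANNGAA, on either strand, in capitals. Irf7 (chr1:205800024-205800223, minus strand) has it 68 to 60 bases and Ifitm3 (chr1:205541759-205541958, minus strand) 44 to 36 bases before the start, on build GRCr8.
Irf7: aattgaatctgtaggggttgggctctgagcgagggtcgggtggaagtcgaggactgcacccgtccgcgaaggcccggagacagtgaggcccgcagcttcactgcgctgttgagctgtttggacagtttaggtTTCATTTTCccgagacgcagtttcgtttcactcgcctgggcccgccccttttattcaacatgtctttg
Ifitm3: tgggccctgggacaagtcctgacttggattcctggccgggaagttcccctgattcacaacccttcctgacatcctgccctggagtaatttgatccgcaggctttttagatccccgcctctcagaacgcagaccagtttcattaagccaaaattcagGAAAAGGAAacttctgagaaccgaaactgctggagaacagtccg
The motif was in the promoters of 4 of the 6 called members of this list. It was in 8.6% of the promoters of all genes called lower and in 3.4% of those of genes called higher. The share was 4.3% among promoters of all genes tested and 6.4% among all promoters of the table.

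Some phagocyte markers fell at 24 h as well. Kupffer cells are the resident macrophages of the liver. Of 11 markers tested, 3 were called lower and none higher, with a median log2 change of -0.49, and the list summed to 5988 and 6055 at 24 h, against 8686 and 8707 at 8 h. Clec4f, a lectin of Kupffer cells, had 520.5 and 532 at 24 h, against 942 and 1016 at 8 h (log2 change -0.89 ± 0.14; adjusted p = 0.0578 without 24 h array 1). Cyba, a subunit of the phagocyte oxidase, had 104 and 111 at 24 h, against 518 and 374 at 8 h (log2 change -2.04 ± 0.36; adjusted p = 0.0746 without 24 h array 1), and C1qb is given above. Without 24 h array 1, 24 h array 2, 8 h array 1 and 8 h array 2, 0, 0, 1 and 1 of the markers were called lower. The part of these cells in the falls of complement and antigen presentation genes was not tested. In bulk liver RNA, fewer cells of a type and less RNA per cell cannot be told apart. The neutrophil (3 tested), lymphocyte (9), endothelial and stellate (18), cholangiocyte (10) and muscle and adipose (13) lists had no member called, and the smallest adjusted p in each belonged to Cxcr2 (log2 change 0.85, adjusted p = 0.149), Cd79b (1.35, 0.212), Fn1 (0.37, 0.204), Anxa4 (-1.41, 0.0926) and Ckm (-1.05, 0.195).

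Transcripts of the exocrine pancreas had the lowest median of all lists. These genes encode digestive enzymes that liver makes little of. In this list 23 members were tested, of which 1 was called higher, 14 were called lower and 8 were not called, with a median log2 change of -1.88. Prss1, trypsinogen, had 3.5 and 13.2 on the 24 h arrays, against 1314 and 1265 on the 8 h arrays, at least 35.4-fold lower (adjusted p = 1.55e-05). Ctrb1, chymotrypsinogen, had 52.8 and 44.8 on the 24 h arrays, against 1607 and 1360.3 on the 8 h arrays, 30.4-fold lower (adjusted p = 0.00014). Pnlip, pancreatic lipase, had 308 and 255 on the 24 h arrays, against 3009 and 2336 on the 8 h arrays, 9.47-fold lower (adjusted p = 0.00031). Prss1, carboxypeptidase B (Cpb1) and phospholipase A2 group IB (Pla2g1b) were below the floor on both 24 h arrays, which makes Cpb1 at least 14.1-fold and Pla2g1b at least 12.6-fold lower. Members called lower numbered 10, 12, 11 and 11 without 24 h array 1, 24 h array 2, 8 h array 1 and 8 h array 2.

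The member called higher, 1810009J06Rikl, rose by 2.20 ± 0.51 on probe set X15679_at (adjusted p = 0.166 without 24 h array 2). The summed level of the 23 markers was 11535 and 11737 on the sham arrays, 49485 and 52310 at 1 h, 3098 and 2991 at 4 h, 15659 and 15747 at 8 h, and 3100 and 3887 at 24 h. It was high at 1 h and 8 h and low at 4 h and 24 h, and the arrays of each group lay close together. The part of pancreatic tissue in the other changes between 8 h and 24 h was not tested; with the probe sets of this list left out, 598 probe sets were called, 303 higher and 295 lower. Of 8 erythroid markers only Hba-a3, an alpha-globin, was called, with 132 and 34.9 at 24 h, against 606 and 558 at 8 h (adjusted p = 0.0629 without 8 h array 1), while the brighter beta-globin Hbb did not pass the test (log2 change -0.04).

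The rate-limiting enzyme of bile acid synthesis, Cyp7a1, fell, while 21 of the 25 members of the bile acid list were not called. Cyp7a1 had 294 and 326 on the 24 h arrays, against 4701 and 3833 on the 8 h arrays. Cyp7a1 fell 13.7-fold (adjusted p = 0.00011). The sham arrays lay between the groups, at 2289 and 2309. Nr0b2, the nuclear receptor SHP, which represses Cyp7a1, was lower too: probe set D86745cds_s_at had 396 and 342 on the 24 h arrays, against 961 and 1517 on the 8 h arrays, a 3.28-fold decrease (adjusted p = 0.00605), and all 3 of its probe sets were called lower, at log2 changes of -3.75 to -1.71. In the bile acid list 1 of 25 members was called higher and 3 lower (median log2 change -0.39). The remaining calls were Slc22a7, an organic anion uptake carrier, at -0.90 (adjusted p = 0.099 without 24 h array 1), and Abcc3, an export pump of the sinusoidal membrane, at 1.80 (adjusted p = 0.11 without 24 h array 1).

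Insig1 and other genes of cholesterol synthesis and uptake fell. Sqle was called higher, but not with quantile normalization or in the fit of only the 8 burn arrays. In this list 20 members were tested, of which 1 was called higher, 9 were called lower and 10 were not called, with a median log2 change of -0.63. Insig1, which holds the sterol sensor SCAP in the endoplasmic reticulum and is itself a sterol-responsive gene, had 1596 and 1454 on the 24 h arrays, against 5699 and 6096 on the 8 h arrays. Insig1 fell 3.87-fold (adjusted p = 0.00224). Ebp, a sterol isomerase, had 1031 and 982 on the 24 h arrays, against 3112 and 2426 on the 8 h arrays. Ebp fell 2.73-fold (adjusted p = 0.00432). Fdft1, squalene synthase, had 1000 and 958 at 24 h, against 2202 and 1956 at 8 h (log2 change -1.08 ± 0.16; adjusted p = 0.0512 without 24 h array 2). For all 3 the groups were well apart. Of the 4 probe sets of Fdft1 only 1 was called, and the smallest change among them was -0.63.

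Cyp51 (log2 change -0.94), Nsdhl (-0.94), Acat2 (-0.93), Fdps (-0.85), Dbi (-0.71) and the lysosomal lipase Lipa (-0.71) made up the rest. Each lost its call in some of the 10 fits (adjusted p = 0.0735 without 24 h array 2 for Cyp51, adjusted p = 0.0666 without 24 h array 2 for Nsdhl, adjusted p = 0.151 without 24 h array 2 for Acat2, adjusted p = 0.126 without 24 h array 1 for Fdps, adjusted p = 0.124 without 24 h array 2 for Dbi and adjusted p = 0.121 without 24 h array 2 for Lipa). Sqle, squalene epoxidase, in the same pathway, was called higher at 0.63 (adjusted p = 0.176 without 24 h array 2). Members called lower without 24 h array 1, 24 h array 2, 8 h array 1 and 8 h array 2 numbered 4, 2, 3 and 6.

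Pck1, Igfbp1 and Tat, hormone-responsive genes of the liver, fell. Glucocorticoids and glucagon induce phosphoenolpyruvate carboxykinase (Pck1), tyrosine aminotransferase (Tat) and the IGF-binding protein Igfbp1, while insulin represses them. Pck1 had 7671 and 7485 on the 24 h arrays, against 23974 and 21933 on the 8 h arrays. Pck1 fell 3.03-fold (adjusted p = 0.00125). Igfbp1 had 1903 and 1855 on the 24 h arrays, against 7165 and 6580.2 on the 8 h arrays, a 3.65-fold decrease (adjusted p = 0.00074), and was 15098 and 15906 at 4 h. Tat fell by 0.88 ± 0.14 (adjusted p = 0.0606 without 24 h array 2). At 24 h all 3 were below the sham arrays.

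In the glucocorticoid-induced list 21 members were tested, of which 2 were called higher, 7 were called lower and 12 were not called, with a median log2 change of -0.32. On plain probe set designs alone the median turned to 0.31, with 2 called higher and 3 lower. That fit did not test the probe sets of Pck1 and Dusp1 counted in this list. Dusp1, a phosphatase that switches off stress-activated MAP kinases, had 74 and 92.1 on the 24 h arrays, against 1152 and 957 on the 8 h arrays, a 12.7-fold decrease (adjusted p = 0.00014), and its 3 probe sets were called lower at log2 changes of -3.98 to -2.01. Errfi1, a feedback inhibitor of the EGF receptor, had 2424 and 3174 on the 24 h arrays, against 7762 and 8141 on the 8 h arrays. Errfi1 fell 2.87-fold (adjusted p = 0.0053). Tdo2, tryptophan dioxygenase, went the other way with 10095 and 11873 on the 24 h arrays, against 4061 and 3638 on the 8 h arrays, a rise of 2.85-fold (adjusted p = 0.00229), and angiotensinogen (Agt) rose by 1.05 ± 0.20 (adjusted p = 0.0935 without 24 h array 1). Members called lower without 24 h array 1, 24 h array 2, 8 h array 1 and 8 h array 2 numbered 6, 6, 7 and 5. In the IGF, growth hormone and insulin list 0 of 35 members were called higher and 2 lower (median log2 change 0.01), Igfbp1 and the cytokine signalling inhibitor Socs2 (log2 change -1.18; adjusted p = 0.139 without 24 h array 1).

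Igf1, Ghr and Igfals were called lower and Igf1r higher, on probe sets that the count of the IGF list above does not use. In the glycolysis and gluconeogenesis list 3 of 33 members were called higher and 6 lower (median log2 change -0.02). Leaving out 24 h array 1, 24 h array 2, 8 h array 1 or 8 h array 2 left 2, 2, 3 and 3 called higher and 4, 2, 3 and 2 lower. Glycolytic enzymes were among those higher: Pklr, liver pyruvate kinase, had 280.2 and 318 on the 24 h arrays, against 111 and 95.8 on the 8 h arrays, a 2.9-fold rise (adjusted p = 0.00682), and Aldoa, aldolase A, had 1378 and 1272 on the 24 h arrays, against 595 and 633 on the 8 h arrays. Aldoa rose 2.16-fold (adjusted p = 0.00403). Pdk4 and Pdk2, kinases that shut off pyruvate dehydrogenase, were called lower. Pdk4 had 46.1 and 80.5 at 24 h, against 237 and 254 at 8 h (log2 change -2.01 ± 0.32; adjusted p = 0.054 without 8 h array 2). Pdk2 had 1107 and 898 at 24 h, against 2108 and 1916 at 8 h (log2 change -1.01 ± 0.16; adjusted p = 0.0638 without 24 h array 2). Pdp2, the phosphatase that opposes them, was lower as well (log2 change -1.09; adjusted p = 0.0655 without 24 h array 2).

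**Figure D4:**
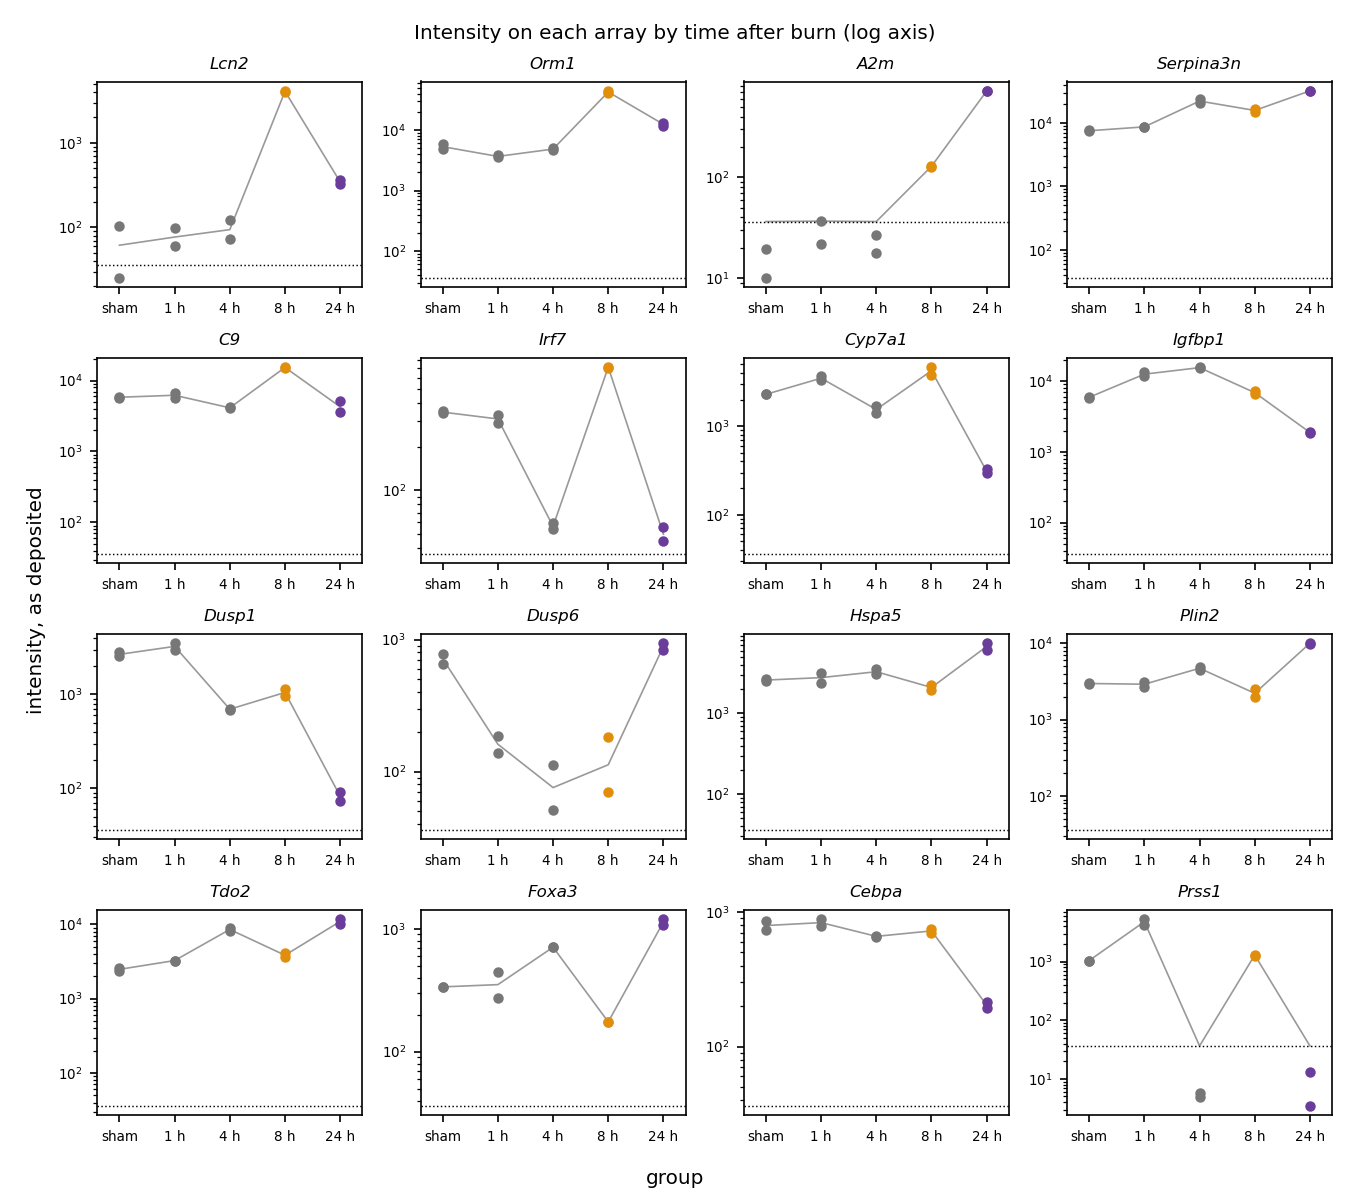
Intensity on each of the 10 arrays (points, log axis) for 16 genes, by group from sham to 24 h; 8 h is orange, 24 h is purple, the line joins group means on the log scale after flooring, and the dotted line is the floor of 36.4. Lcn2, Orm1, C9 and Irf7 are highest at 8 h, A2m is highest at 24 h, and Cyp7a1, Igfbp1, Dusp1 and Cebpa are lowest at 24 h.

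Amino acid catabolism was divided. In this list 38 members were tested, of which 5 were called higher, 8 were called lower and 25 were not called. The median log2 change was -0.27. The urea cycle enzyme Cps1 was called lower on a probe set that this count does not use. Besides Tdo2, the calls higher were the urea cycle enzymes Arg1, with 14828 and 14007 at 24 h, against 7329.7 and 7853 at 8 h (adjusted p = 0.0725 without 24 h array 1), and Asl (log2 change 0.71; adjusted p = 0.166 without 24 h array 1), glutamate dehydrogenase (Glud1, 0.89; adjusted p = 0.0796 without 8 h array 2) and Agxt2 (0.76; adjusted p = 0.103 without 8 h array 2). Kmo, which acts further down the tryptophan pathway that Tdo2 opens, was lower, with 779 and 828 on the 24 h arrays, against 1894 and 1901 on the 8 h arrays. Kmo fell 2.36-fold (adjusted p = 0.00251). The sulfur amino acid enzymes Mpst (log2 change -1.08), Csad (-0.91) and Cdo1 (-0.67) were called lower, and each lost the call in some of the 10 fits (adjusted p = 0.0677 without 24 h array 2 for Mpst, adjusted p = 0.0797 without 24 h array 1 for Csad and adjusted p = 0.169 without 24 h array 2 for Cdo1). Without 24 h array 1, 24 h array 2, 8 h array 1 and 8 h array 2 the list held 1, 1, 2 and 1 members called higher and 2, 1, 2 and 2 called lower.

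Of 18 genes of serine, glycine, methionine and one-carbon metabolism, 3 were called lower and none higher, with a median log2 change of -0.24. Gnmt, which uses up methyl groups by methylating glycine, had 4172 and 3672 on the 24 h arrays, against 14623 and 12269 on the 8 h arrays. Gnmt fell 3.42-fold (adjusted p = 0.00107). Cth, which makes cysteine from cystathionine, had 2281 and 2762 on the 24 h arrays, against 7010.1 and 6787 on the 8 h arrays. Cth fell 2.75-fold (adjusted p = 0.00304). All 3 probe sets of Gnmt and both of Cth were called. Sardh was the other call (log2 change -0.55; adjusted p = 0.173 without 24 h array 1).

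Few genes of lipid metabolism were called, and they went both ways. Plin2, perilipin 2, the coat protein of lipid droplets, had 10091 and 9851 on the 24 h arrays, against 2501 and 1950.1 on the 8 h arrays, a 4.51-fold rise (adjusted p = 0.0008), and the sham arrays, at 2991 and 2938, lay between the groups. Scd, stearoyl-CoA desaturase, had 1924 and 1839 on the 24 h arrays, against 709 and 801 on the 8 h arrays. Scd rose 2.5-fold (adjusted p = 0.0045), and its other probe set, at 0.29, was not called. Acsl1, which activates fatty acids, fell on all 4 of its probe sets, the brightest of which had 2395 and 2056 on the 24 h arrays, against 5306 and 4849 on the 8 h arrays (2.29-fold lower, adjusted p = 0.00629). The dimmest, rc_AA893242_at, at -3.08, did not keep the call (adjusted p = 0.0831 without 24 h array 2), and the other 3 did.

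ATP citrate lyase (Acly) was lower by 0.87 (adjusted p = 0.0846 without 24 h array 2), and acetyl-CoA carboxylase 2 (Acacb), below the floor on both 24 h arrays, was at least 6.35-fold lower (adjusted p = 0.143 without 24 h array 2). In the list of fatty acid and triglyceride synthesis 2 of 25 members were called higher and 3 lower (median log2 change -0.29), and in that of fatty acid oxidation and ketone bodies 1 of 36 members was called higher and 4 lower (median log2 change -0.02). The lower calls of these lists became 1, 1, 1 and 2 for synthesis and 1, 2, 1 and 2 for oxidation when 24 h array 1, 24 h array 2, 8 h array 1 or 8 h array 2 was left out. Decr2, a peroxisomal dienoyl-CoA reductase, had 539 and 574 on the 24 h arrays, against 1542 and 1411 on the 8 h arrays. Decr2 fell 2.65-fold (adjusted p = 0.00241). Cpt1a, the carnitine transferase that admits fatty acids to mitochondria, was called higher at 0.69 (adjusted p = 0.151 without 24 h array 2), and Bdh1, of ketone body synthesis, lower at -1.49 (adjusted p = 0.0849 without 24 h array 2). Among apolipoproteins and lipoprotein enzymes, Apob (0.84; adjusted p = 0.144 without 24 h array 2) and hepatic lipase Lipc (0.75; adjusted p = 0.186 without 24 h array 2) were called higher and Apoc4 (-0.62; adjusted p = 0.138 without 24 h array 1) lower, of 16 tested.

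A few genes of detoxification were called, some higher and some lower. Of the cytochrome P450 list, 3 of 39 members were called higher and 4 lower (median log2 change 0.06), shares near the 5.32% and 6.27% of all genes. Cyp2b2, a drug-inducible P450 whose probes may also read the near-identical Cyp2b1, had 30009.9 and 28172 on the 24 h arrays, against 10572 and 10103 on the 8 h arrays, a 2.81-fold rise (adjusted p = 0.00241), and was 2899 and 3529.7 on the sham arrays. Cyp2c11, the main P450 of adult male rat liver, had 6733 and 6135 on the 24 h arrays, against 2755 and 2329.9 on the 8 h arrays, a 2.54-fold rise (adjusted p = 0.00295), and its 3 probe sets were all called higher. It was also the only call among 21 sex-dependent genes. Por, the reductase that feeds electrons to P450 enzymes, rose by 1.37 ± 0.23 (adjusted p = 0.0731 without 24 h array 1). Cyp17a1, of steroid synthesis, was 2.46-fold lower at 24 h (adjusted p = 0.006), and Cyp2j3 was 2.35-fold lower (adjusted p = 0.00661).

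In the list of conjugation enzymes 2 of 37 members were called higher and 2 lower (median log2 change -0.15), again near the shares of all genes. With 24 h array 1, 24 h array 2, 8 h array 1 or 8 h array 2 left out, 1, 1, 1 and 3 were called higher and 1, 1, 1 and 1 lower. Ugt2b, a glucuronosyltransferase of a family with close paralogs, had 41.8 and 40.9 on the 24 h arrays, against 3772 and 917 on the 8 h arrays on probe set rc_AI169708_s_at. It was 45-fold lower at 24 h (adjusted p = 0.00241), although the 8 h arrays differed widely from each other. Probe set X03478cds_f_at fell 4.21-fold (adjusted p = 0.00071), and the third, at -0.01, was not called. Glutathione transferases of the mu class were higher: Gstm2 had 7866 and 7854 on the 24 h arrays, against 3596 and 3931 on the 8 h arrays, a 2.09-fold rise (adjusted p = 0.00674), and Gstm1 rose by 0.84 (adjusted p = 0.0885 without 24 h array 1).

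In the list of carboxylesterases and steroid or retinol dehydrogenases 2 of 31 members were called higher and 7 lower (median log2 change -0.21). These became 1, 1, 3 and 2 higher and 4, 3, 4 and 3 lower when 24 h array 1, 24 h array 2, 8 h array 1 or 8 h array 2 was left out. The alcohol dehydrogenase Adh4 had 261 and 259 on the 24 h arrays, against 1244 and 1230 on the 8 h arrays, a 4.76-fold decrease (adjusted p = 0.00036), and Adh1c had 6646 and 6139.9 on the 24 h arrays, against 21903 and 19575 on the 8 h arrays. Adh1c fell 3.24-fold (adjusted p = 0.00133). Akr1c13, an aldo-keto reductase, had 262 and 296 on the 24 h arrays, against 1489 and 1449 on the 8 h arrays, a 5.28-fold decrease (adjusted p = 0.00132), and its sham arrays, at 297 and 221, were close to the 24 h values. Ces1c, a carboxylesterase, rose 3.18-fold, with 12996 and 12017 on the 24 h arrays, against 4589.6 and 3372 on the 8 h arrays (adjusted p = 0.00276), and Rdh16, a retinol dehydrogenase, rose by 1.59 (adjusted p = 0.0962 without 24 h array 2).

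More chaperone and antioxidant genes were called higher than lower at 24 h. Heat shock proteins refold damaged proteins in the cytosol, and the chaperones of the endoplasmic reticulum serve secretory proteins, of which the acute phase liver makes many. Of heat shock proteins, 22 members were tested, of which 7 were called higher, 0 were called lower and 15 were not called. The median log2 change was 0.52. Hspb1 was called lower on a probe set that this count does not use. Hsph1, the HSP110 co-chaperone, had 1015 and 918 on the 24 h arrays, against 447 and 449 on the 8 h arrays. Hsph1 rose 2.16-fold (adjusted p = 0.00605). Dnajb9, an ER co-chaperone held in both lists, had 416 and 292 at 24 h, against 123 and 109 at 8 h (log2 change 1.59 ± 0.28; adjusted p = 0.0756 without 24 h array 1). Dnajc5 (1.08; adjusted p = 0.0725 without 24 h array 1) and Hsp90ab1 (0.95; adjusted p = 0.103 without 8 h array 2) were higher as well, and Hspb2, Cct3 and Dnajb1 were called at 0.64 to 1.26 and lost the call with 24 h or 8 h arrays left out (adjusted p = 0.14 without 8 h array 2, adjusted p = 0.191 without 24 h array 2 and adjusted p = 0.206 without 24 h array 1, in that order). Members called higher without 24 h array 1, 24 h array 2, 8 h array 1 and 8 h array 2 numbered 1, 3, 2 and 2.

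Of chaperones and stress genes of the endoplasmic reticulum, 30 members were tested. Of these, 7 were called higher, 3 were called lower and 20 were not called, with a median log2 change of 0.13. On probe sets that this count does not use, Hsp90b1 and Canx were called higher and Tmbim6 lower. Hspa5, the chaperone BiP, had 7477 and 6075 on the 24 h arrays, against 2237 and 1960.2 on the 8 h arrays, a 3.22-fold rise (adjusted p = 0.00361), and lay above both sham arrays at 24 h. Its other probe set, at 1.45, was not called. Hyou1, an ER chaperone of the HSP110 family, had 1020.1 and 1114 at 24 h, against 466 and 553 at 8 h (log2 change 1.07 ± 0.19; adjusted p = 0.0822 without 24 h array 2). Ssr3, a subunit of the translocon-associated complex, had 2336 and 2464 at 24 h, against 584 and 1022 at 8 h (adjusted p = 0.0653 without 24 h array 2). Its partner subunit Ssr4 and the glycosylation and folding genes Rpn2 and Erp29 were called lower, at log2 changes of -0.63, -0.85 and -0.78 (adjusted p = 0.133 without 24 h array 1 for Ssr4, adjusted p = 0.0847 without 24 h array 2 for Rpn2 and adjusted p = 0.132 without 24 h array 2 for Erp29). Serp1, Ero1b and the stress kinase gene Eif2ak3 made up the calls higher, at 0.80 to 1.08, and lost the call in some of the 10 fits (adjusted p = 0.115 without 24 h array 1, adjusted p = 0.0997 without 8 h array 2 and adjusted p = 0.176 without 24 h array 1, in that order). Without 24 h array 1, 24 h array 2, 8 h array 1 and 8 h array 2 the list held 1, 2, 3 and 3 members called higher and 1, 0, 0 and 0 called lower.

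Promoters of Hsph1 and Hspa5, the members of smallest p in the chaperone lists, are shown for the motifs marked in them. Each is again the 200 bases before the start on build GRCr8. In Hsph1 (chr12:10427168-10427367, plus strand) capitals mark the heat shock motif TTCNNGAA, 105 to 98 and 36 to 29 bases before the start. In Hspa5 (chr3:38452816-38453015, plus strand) they mark TGACGTG, a motif like the cyclic AMP response element, 135 to 129 bases before the start.
Hsph1: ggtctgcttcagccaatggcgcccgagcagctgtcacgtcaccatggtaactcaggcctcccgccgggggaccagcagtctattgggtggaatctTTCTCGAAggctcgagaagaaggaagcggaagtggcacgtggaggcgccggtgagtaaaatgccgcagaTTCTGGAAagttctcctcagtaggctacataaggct
Hspa5: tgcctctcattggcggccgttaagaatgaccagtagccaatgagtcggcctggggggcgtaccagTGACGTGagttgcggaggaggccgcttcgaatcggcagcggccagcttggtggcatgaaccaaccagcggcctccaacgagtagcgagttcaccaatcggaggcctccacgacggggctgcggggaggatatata
The heat shock motif was in the promoters of 1 of 6 called heat shock genes with a promoter in the table, Hsph1. It was in 4.5% of genes called higher, in 6.1% of genes called lower and in 5.7% of all promoters. TGACGTG was in 3 of 10 called genes of the ER list, in 4.5% of genes called higher, in 2.0% of genes called lower and in 1.4% of all promoters. Of the other motifs searched on both strands, the E-box CACGTG was in 9.7% of genes called higher, 7.1% of those called lower and 4.9% of all promoters, and the HNF1 motif GTTAATNAT was in 0.6%, 2.0% and 0.6% in the same order. The D-box TTANNTAA was in 0.6%, 1.0% and 4.1%, and the sterol motif TCACNCCAC in 1.1%, 0.0% and 0.8%. Among promoters of all genes tested, the shares were 4.5% for the heat shock motif, 2.0% for TGACGTG and 7.1% for the E-box. They were 0.7% for the HNF1 motif, 2.2% for the D-box and 0.6% for the sterol motif.

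Of glutathione and antioxidant enzymes, 26 members were tested, of which 5 were called higher, 1 was called lower and 20 were not called, with a median log2 change of 0.14. Gclc, the catalytic subunit of the enzyme that limits glutathione synthesis, had 394 and 535 on the 24 h arrays, against 143 and 127 on the 8 h arrays. Gclc rose 3.41-fold (adjusted p = 0.00376). Its modifier subunit Gclm was called lower, at -0.66 (adjusted p = 0.159 without 24 h array 1). Gss, which completes glutathione, rose by 1.08 (adjusted p = 0.0885 without 24 h array 2), thioredoxin reductase Txnrd1 by 1.26 (adjusted p = 0.0781 without 24 h array 2) and the mitochondrial superoxide dismutase Sod2 by 1.03 (adjusted p = 0.147 without 24 h array 1). Hmox1, heme oxygenase 1, had 2858 and 2825 at 24 h, against 1319 and 1131 at 8 h (log2 change 1.22 ± 0.24; adjusted p = 0.0998 without 8 h array 2) and was 402 and 551 on the sham arrays, below both groups. Members called higher without 24 h array 1, 24 h array 2, 8 h array 1 and 8 h array 2 numbered 2, 2, 2 and 3.

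Ncl, Nop58 and Gnl3, genes of the nucleolus, rose. Ncl, nucleolin, had 2208 and 2147 on the 24 h arrays, against 794 and 840 on the 8 h arrays. Ncl rose 2.67-fold (adjusted p = 0.00569). Nop58, a core protein of the particles that modify ribosomal RNA, had 549 and 389 on the 24 h arrays, against 85.4 and 102 on the 8 h arrays. Nop58 rose 4.95-fold (adjusted p = 0.00454). Gnl3, nucleostemin, named after its values were seen, had 767 and 653 on the 24 h arrays, against 204 and 214 on the 8 h arrays on probe set rc_AA892598_at (adjusted p = 0.00132), and 1 of its 3 probe sets was not called. Of 38 cytosolic ribosomal proteins, 4 were called higher and 1, Rpl41, lower, with a median log2 change of 0.21. In 27 of the 38 both 24 h arrays lay above both 8 h arrays, against 30.9% of all probe sets tested. Rpl17, Rpl6, Rpl4 and Rps3 rose by 1.23, 1.03, 0.75 and 0.58, and none kept the call in all 10 fits (adjusted p = 0.169 without 24 h array 1, adjusted p = 0.118 without 8 h array 2, adjusted p = 0.136 without 24 h array 2 and adjusted p = 0.185 without 8 h array 2, in that order). Rpl41 was at -1.36 (adjusted p = 0.13 without 24 h array 1). In the electron transport and ATP synthase list 46 of 47 genes were not called, and Vdac1 was lower (-1.13; adjusted p = 0.0991 without 24 h array 2).

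Most hepatocyte transcription factors were not called, and the largest changes belonged to Foxa3, Id2 and Cebpa. Cebpa, C/EBP alpha, a factor of mature liver metabolism, had 214 and 194 on the 24 h arrays, against 746 and 700.3 on the 8 h arrays. Cebpa fell 3.55-fold (adjusted p = 0.00099). The related forkhead factors Foxa2 and Foxa3 parted: Foxa2 had 122 and 162 on the 24 h arrays, against 382 and 419 on the 8 h arrays, a 2.85-fold decrease (adjusted p = 0.0051), and Foxa3 had 1203 and 1069.6 on the 24 h arrays, against 175 and 174 on the 8 h arrays. Foxa3 rose 6.5-fold (adjusted p = 0.00099). Id2, which blocks basic helix-loop-helix factors, had 996 and 1254 on the 24 h arrays, against 242 and 169 on the 8 h arrays. Id2 rose 5.54-fold (adjusted p = 0.00241). For Foxa3 and Id2 the sham arrays lay between the groups. Hnf4a was called higher on a probe set that the list count does not use. In the list 3 of 39 members were called higher and 5 lower (median log2 change 0.08), against 5.32% and 6.27% of all genes. With 24 h array 1, 24 h array 2, 8 h array 1 or 8 h array 2 left out, 3, 2, 2 and 3 were called higher and 3, 4, 3 and 3 lower. The acute phase factor Cebpb was at -0.68 (adjusted p = 0.173 without 8 h array 1), the liver X receptor Nr1h3 at -0.66 (adjusted p = 0.145 without 24 h array 2) and the thyroid hormone receptor Thra at 1.17 (adjusted p = 0.103 without 8 h array 2).

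Of immediate early genes and MAP kinase phosphatases, 5 of 26 members were called higher and 1 lower (median log2 change 0.23). Egr1, a growth-factor responsive zinc finger factor, had 2004 and 1748 on the 24 h arrays, against 535 and 623 on the 8 h arrays. Egr1 rose 3.24-fold (adjusted p = 0.00123). Junb, a component of AP-1, had 1314 and 1358 on the 24 h arrays, against 478 and 344 on the 8 h arrays. Junb rose 3.3-fold (adjusted p = 0.00351). Not all probe sets of these genes were called: 2 of 4 for Egr1, 1 of 2 for Junb and 1 of 2 for Dusp6. The lowest log2 changes were 0.3 for Egr1 and 1.24 for Dusp6. The phosphatases moved apart: Dusp6, which acts on ERK, had 945 and 837 at 24 h, against 182 and 69.7 at 8 h (log2 change 2.98 ± 0.51; adjusted p = 0.0703 without 24 h array 1), whereas Dusp1 fell, as given above.

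Ier3 (0.94; adjusted p = 0.173 without 8 h array 1) and Egr3 (1.63; adjusted p = 0.142 without 24 h array 2) were the other calls higher, and Fos, Jun and Myc were not called on any probe set tested. Without 24 h array 1, 24 h array 2, 8 h array 1 and 8 h array 2 there were 2, 2, 3 and 4 calls higher. In the growth list the receptors Erbb2, with 56.9 and 45.2 at 24 h, against 201 and 172 at 8 h (adjusted p = 0.0849 without 24 h array 2), and Erbb3 (-0.89; adjusted p = 0.0847 without 24 h array 2) were called lower beside H19, and Ncl higher, of 34 tested. In the cytokine and STAT3 list Jak2 (1.49; adjusted p = 0.1 without 24 h array 2) and Nfkb1 (0.85; adjusted p = 0.0936 without 8 h array 2) were called higher and Socs2 and Lbp lower, of 28 tested. Clock output genes were called higher: Dbp had 932 and 663 at 24 h, against 366 and 255 at 8 h (log2 change 1.36 ± 0.28; adjusted p = 0.117 without 24 h array 1) and Bhlhe40 had 295 and 254 at 24 h, against 159 and 117 at 8 h (adjusted p = 0.147 without 24 h array 1), of 8 clock genes tested with a median of 0.43. The other probe set of Dbp, at 0.55, was not called. The labels used here do not give the clock time of sampling.

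Among 62 solute carriers, aquaporins, gap junction proteins and ABC transporters, 5 were called higher and 8 lower, with a median log2 change of -0.09. Over all genes tested the shares were 5.32% higher and 6.27% lower. Leaving out 24 h array 1, 24 h array 2, 8 h array 1 or 8 h array 2 left 2, 2, 6 and 2 called higher and 2, 1, 1 and 2 lower. Slco2a1, a prostaglandin transporter, had 957 and 1016 on the 24 h arrays, against 4404 and 4441 on the 8 h arrays. Slco2a1 fell 4.48-fold (adjusted p = 0.00037). Slc3a2, the heavy chain shared by several amino acid exchangers, had 2380.4 and 1242 on the 24 h arrays, against 311 and 341 on the 8 h arrays, a 5.28-fold rise (adjusted p = 0.00605), and both of its probe sets were called higher. Gjb2, connexin 26, had 1039 and 951 on the 24 h arrays, against 434 and 478 on the 8 h arrays. Gjb2 rose 2.18-fold (adjusted p = 0.00459). The taurine carrier Slc6a6 had 118 and 121 at 24 h, against 43.2 and 16.5 at 8 h (log2 change 1.59 ± 0.25; adjusted p = 0.0566 without 24 h array 2), with 1 of the 8 h arrays below the floor. The calls lower on the remaining carriers were smaller, with Slc25a30 at -1.36 (adjusted p = 0.117 without 24 h array 2) and Aqp8 at -0.88 (adjusted p = 0.114 without 24 h array 1).

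**Figure D5:**
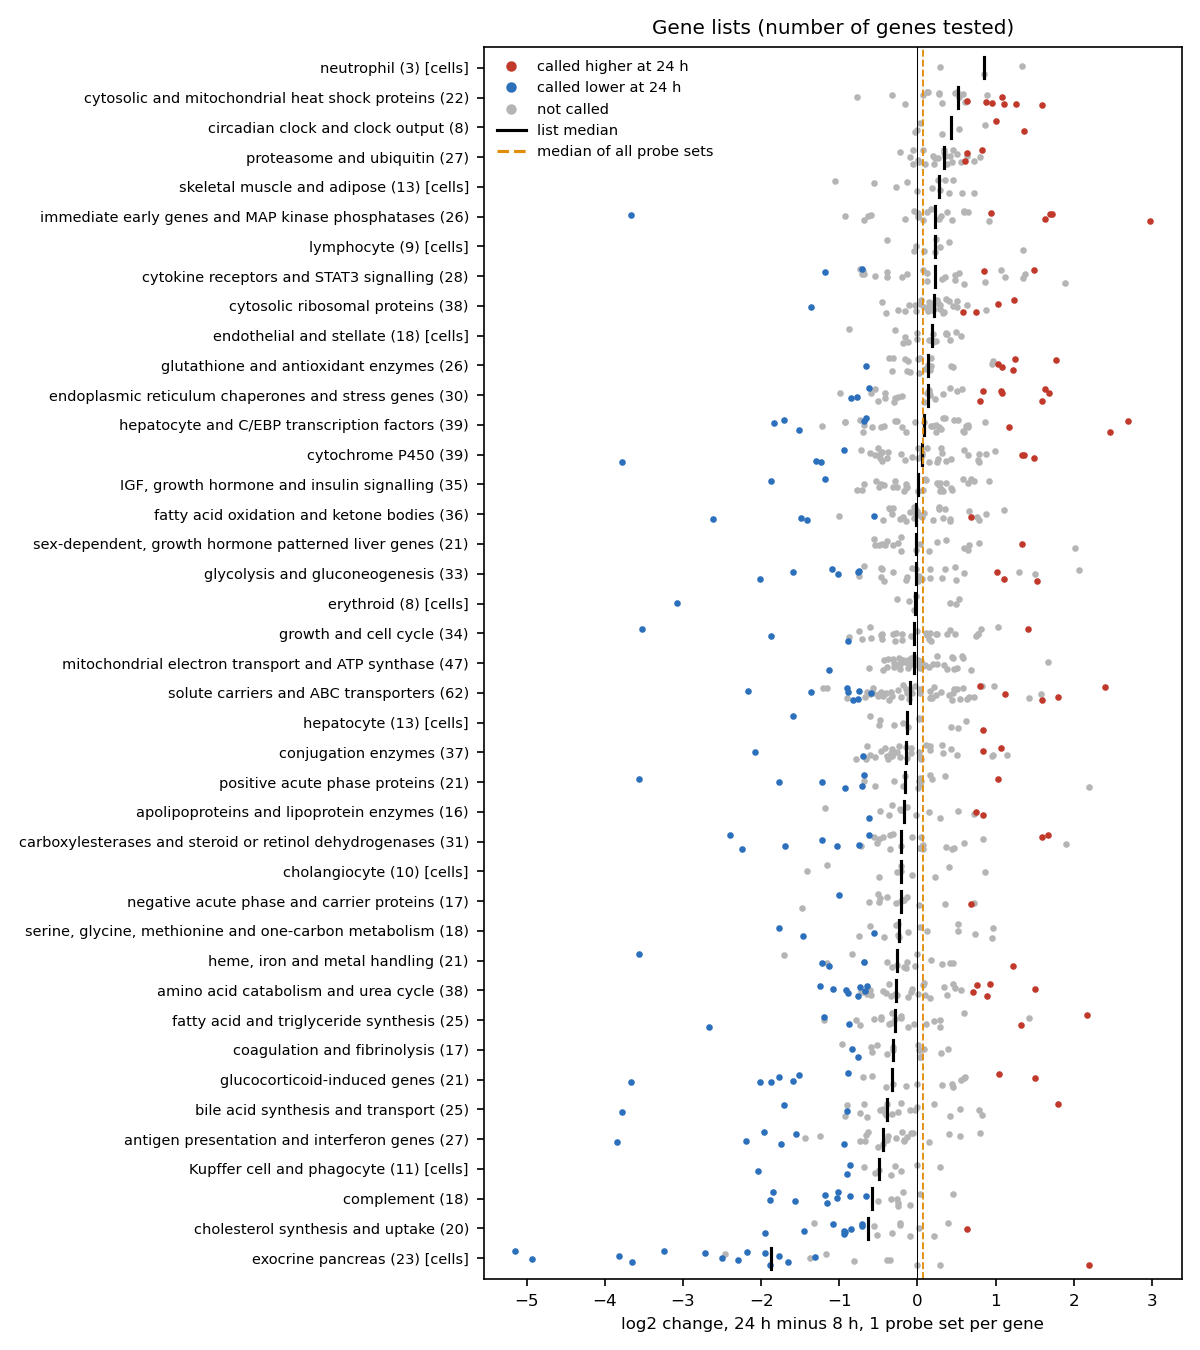
Each point is the log2 change (24 h minus 8 h, x axis) of 1 tested gene in a list (rows, number tested in brackets; marker lists of cell types are marked as cells), red where called higher, blue where called lower and grey where not called. Black ticks are list medians, and the dashed line is the median of all probe sets, 0.07. The lowest medians belong to exocrine pancreas (-1.88), cholesterol synthesis (-0.63) and complement (-0.58), and among process lists the highest is that of heat shock proteins (0.52).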

How the data were processed

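Rat liver RNA on 10 arrays, 2 arrays in each of 5 groups, was measured on 1-colour Affymetrix arrays. The deposited values are 1 intensity per probe set and array on a linear scale, as the authors' table gives them; the software and scaling behind them are not given in the sources used here. Intensities below 36.4, the median of the arrays' 25th percentiles, were set to that floor, and log2 was taken. Probe sets above their own array's median on at least 2 of 10 arrays were tested, and 59 control probe sets were left out, a choice made after seeing the file. One limma model (limma 3.58.1, R 4.3.3) held the 5 groups, with 5 residual degrees of freedom, and gave 24 h minus 8 h with Benjamini-Hochberg adjustment over 5254 probe sets; a probe set was called where its adjusted p was under 0.05. Every adjusted p comes from this model or, where an array is named as left out, from its refit. The number of arrays limits the precision.

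The platform annotation gave 1 symbol to 7018 probe sets, several to 308 and none to 1473, and the tested ones stood for 3142 genes. In a list a gene is represented by its probe set with the highest mean over the 10 arrays. Its other probe sets need not share the call: for Apob 1 of 5 was called, and the lowest log2 change was 0.19. Named genes are the 15 largest increases and 15 largest decreases among called genes whose arrays did not overlap, the 4 called genes of smallest p in a list, and the gene of smallest p where a list had none called; other called members were added after their values were seen, to complete a list. Members and lists were chosen with earlier results of these data known. Promoters are RefSeq's, build GRCr8, matched by symbol to 176 of 204 genes called higher and 198 of 237 called lower, and searched on both strands over 200 bases before the start; the interferon and TGACGTG motifs were added after seeing the data. In simulated data over the 5254 probe sets with 200 changed, the fit recovered 18% of 2-fold and 74% of 4-fold changes with 4 false calls. Summaries and plots used Python 3.11.15, pandas 2.3.3 and matplotlib 3.10.9.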

Additional observations from a re-analysis of the deposited data

Results flagged for a closer look

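Of the 30 genes with the largest changes, 17 had the 24 h arrays on 1 side of both sham arrays and the 8 h arrays on the other, so that their changes relative to sham ran in opposite directions. The difference between those changes is the 24 h minus 8 h log2 change given here; the pattern against sham was not tested in itself. At 24 h above sham and at 8 h below it were Tuba4a (3.70), Dusp6 (2.98), Nap1l1 (2.87), Foxa3 (2.70), Id2 (2.47), Eif2b3 (2.45), Nop58 (2.31) and Cox7a2l (2.29). At 24 h below sham and at 8 h above it were the pancreatic enzymes Prss1 (-5.15), Ctrb1 (-4.93), Cpb1 (-3.82) and Pnlip (-3.24), and Irf7 (-3.84), Cyp7a1 (-3.78), H19 (-3.53), Cd36 (-3.14) and Acsl1 on its dimmest probe set (-3.08; adjusted p = 0.0831 without 24 h array 2).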

How the results depend on the processing

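The counts of calls depended most on which arrays shared the estimate of spread. Against 624 probe sets called, 309 higher and 315 lower at 24 h, a fit of only the 24 h and 8 h arrays called 167, with 80 higher and 87 lower, of which 141 were among the 624. Restricting the test to probe sets of plain design called 357 of 3373, with 171 higher and 186 lower. Of the 624, 376 were still tested there, and 357 of these were called. No member of the bile acid, cytochrome P450 or conjugation lists was called. The probe sets of Cyp7a1, Nr0b2, Cyp2b2 and Gstm2 in those lists are of other designs and were not tested. With each array left out in turn, 253 to 575 were called, 100 to 285 of them higher and 147 to 290 lower; the counts were 253 and 265 without 24 h array 1 and 24 h array 2, and 353 and 300 without 8 h array 1 and 8 h array 2. A group left with 1 array is assumed there to vary like the other groups. Higher calls made up 39.5% of the calls without 24 h array 1 and 56.7% without 8 h array 1. The replicate block called 656, with 314 higher and 342 lower; deviations of same-numbered arrays correlated at 0.012 to 0.17, not over 0.1 in every pair, so the numbers were not taken to pair the arrays. Quantile normalization (613), the floor at the 10th percentile (615), at the 50th percentile (775), an intensity trend with robust variance (866), no filter on dim probe sets (704), only the 8 burn arrays (575), control probe sets kept (621), only probe sets above the floor on all 4 arrays (612), no 1 h arrays (510) and no 4 h arrays (564) stayed within 1.5 times the count; the last 4, and the 598 called without the pancreatic genes, were chosen after seeing the data. Of 125 named and called probe sets, 67 kept the call with each array left out, and none changed direction under any setting run. The fit of only the groups compared kept 50 of them, and 104 kept the call under all the remaining settings in which they were tested.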

Other observations

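Several genes outside the lists were called higher at 24 h. They were picked after their values were seen and stand for no group; Rpp21, an RNase P subunit, was called lower on both of its probe sets (adjusted p = 0.11 without 24 h array 2 for the brighter). Srsf2, a splicing factor, had 2052 and 1811 on the 24 h arrays, against 600.4 and 569.7 on the 8 h arrays on probe set rc_AA875537_at (log2 change 1.72 ± 0.16, adjusted p = 0.0012), while its dimmer probe set, at 0.16, was not called. Hnrnpab, an RNA-binding protein, had 2029 and 2023 on the 24 h arrays, against 660.2 and 735 on the 8 h arrays (log2 change 1.54 ± 0.15). Sfpq was at 1.79 (adjusted p = 0.0595 without 24 h array 1), with its other probe set not called (adjusted p = 0.254). In each the sham arrays lay above the 8 h arrays and below the 24 h arrays. The translation factors Eif2b4 (1.64) and Eif3b (1.18; adjusted p = 0.0557 without 24 h array 2) and the threonyl-tRNA synthetase Tars1 (1.19) were also called higher. Krt18, a keratin of hepatocytes, had 6726 and 7309.9 on the 24 h arrays, against 2362 and 2223 on the 8 h arrays, and both of its probe sets were called higher.

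Other genes picked in the same way were called lower. Avpr1a, a vasopressin receptor, had 245 and 266 on the 24 h arrays, against 859 and 677 on the 8 h arrays (log2 change -1.58 ± 0.17), and Adra1b, an adrenergic receptor, had 176 and 215 on the 24 h arrays, against 448 and 544 on the 8 h arrays (log2 change -1.34 ± 0.23; adjusted p = 0.074 without 24 h array 1). The ribonuclease Rnase4 had 1890.5 and 2357 on the 24 h arrays, against 6991 and 7238 on the 8 h arrays (log2 change -1.75 ± 0.16), and Ndrg2 had 996 and 1031 on the 24 h arrays, against 3484 and 3298 on the 8 h arrays (log2 change -1.74 ± 0.19). For all 4 the 24 h arrays lay below the sham arrays. Among cathepsins, Ctsl rose by 2.13 on probe set S85184_g_at and not on its brighter probe set, at 0.39, and Ctsd was called lower at -0.94 (adjusted p = 0.0673 without 24 h array 1), with a dimmer probe set at -0.22 not called.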
